A study of Homo sapiens with 6 samples.

Results

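Ribosome biogenesis and nucleolar genes were described here in U251 cells, a human glioma line, as 60 genes chosen by symbol and grouped by the step of ribosome assembly at which their proteins act. Of the 60, 53 had a probe set annotated to their symbol alone, and each was represented by its brightest probe set over the 6 arrays. All 53 were bright enough to be tested, among 13720 genes in all. The other 7 were not analysed here: NOP56, DKC1, BOP1 and DDX47 shared their probe sets with other symbols, and GNL3, EBNA1BP2 and DDX18 were not in the probe annotation used. The tested cells overexpressed PARK2, the gene of the ubiquitin ligase parkin (3 arrays), and the control cells overexpressed GFP (3 arrays). Per the labels' protocols, both were stable lines made by viral infection with polybrene and selection in puromycin, so both carry a vector and the resistance to the drug. The labels do not say which promoter drove the transgene, or whether a line was 1 clone or a pool. They also do not say whether the arrays called biological replicates came from separate cultures. The p-values thus measure the spread between these arrays, taken mostly over genes of like intensity, and that spread may be technical.

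Ribosomes are built in the nucleolus, where RNA polymerase I transcribes the ribosomal RNA precursor and small nucleolar ribonucleoproteins (snoRNPs) guide its modification. A large early assembly, the small subunit processome, forms the 40S subunit, while other factors, many of them GTPases and DEAD-box helicases, build the 60S subunit before both leave the nucleus. The transcription factor MYC is known to drive many of these genes, and fast-growing tumour cells usually have prominent nucleoli.

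The arrays differed in overall brightness: 2% trimmed means of intensity ran from 140.8 to 154.9 in PARK2 arrays and from 137.3 to 168.3 in control arrays, and control replicate 1 was the brightest of the 6. All 9 glial and glioma markers examined were above the filter on dim probe sets, with a summed intensity of 28563 to 29559 in PARK2 arrays and 26413 to 31562 in control arrays. That sum is carried by bright genes such as VIM and CD44. Among dimmer ones, S100B averaged 125 in PARK2 and 366 in control arrays and SLC1A3 245 in PARK2 and 416 in control arrays, while the GFAP mean of 362 in PARK2 arrays was above its mean in control arrays. Of the markers of other cell types, 0 of the 2 leukocyte genes measured, 1 of 3 endothelial genes (PECAM1) and 1 of 3 epithelial genes (KRT18) passed that filter. KRT18 averaged 85.9 in PARK2 and 208 in control arrays, and the summed epithelial genes ran from 92.3 to 97.7 in PARK2 arrays and from 179.7 to 267 in control arrays. The part of these marker differences in the results was not tested. The level of the PARK2 transgene was not analysed here, and the labels were taken as given.

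More of the ribosome biogenesis genes were lower than higher in PARK2 cells. Of the 53, 15 were lower (28.3%) and 5 were higher (9.43%) at an adjusted p under 0.05 (limma on log2 of intensity plus 16, Benjamini-Hochberg over all genes tested), while 15.6% of all genes tested were lower and 13.3% higher. Together 20 of the 53 passed (37.7%), against 28.8% of all genes. On the brightest probe sets the changes were small, and the 53 ranged from -0.83 to 0.67 on the log2 scale. A further probe set of UBTF was at 1.19. On the brightest ones, 0 of the 53 both passed and changed by 2-fold or more, where 5.59% of all genes did (26 of the 53 had an unadjusted p under 0.05 by limma). Their median log2 fold change was -0.12, against -0.0026 for all genes tested, and 35 of the 53 (66.0%) had a value below 0, against 50.3% of all genes. The 3 PARK2 arrays lay entirely below the 3 control arrays for 21 of the 53 and entirely above them for 8, where 21.1% and 18.3% of all genes did so. In such a comparison of cell extracts, fewer cells that express a gene and less RNA of it per cell cannot be told apart.

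The median of the 53 genes on each array, as the deviation of log2 intensity from the mean of each gene over the 6 arrays, was -0.106, -0.0884 and -0.0117 in PARK2 replicates 1 to 3, against 0.233, 0.0385 and -0.0636 in control replicates 1 to 3. Control replicate 3 thus lay inside the range of the PARK2 arrays, and control replicate 1 lay farthest out. The same median over all genes tested was 0.169 in control replicate 1, so that this array was bright for genes at large too. Without control replicate 1, 14 of the 53 genes were lower and 9 higher, against 1837 and 2799 of all 13720 genes. Their median log2 fold change was then -0.0257. Without control replicate 2, 9 of the 53 were lower and 2 higher, against 1651 and 1267 of all 13720.

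**Figure D1:**
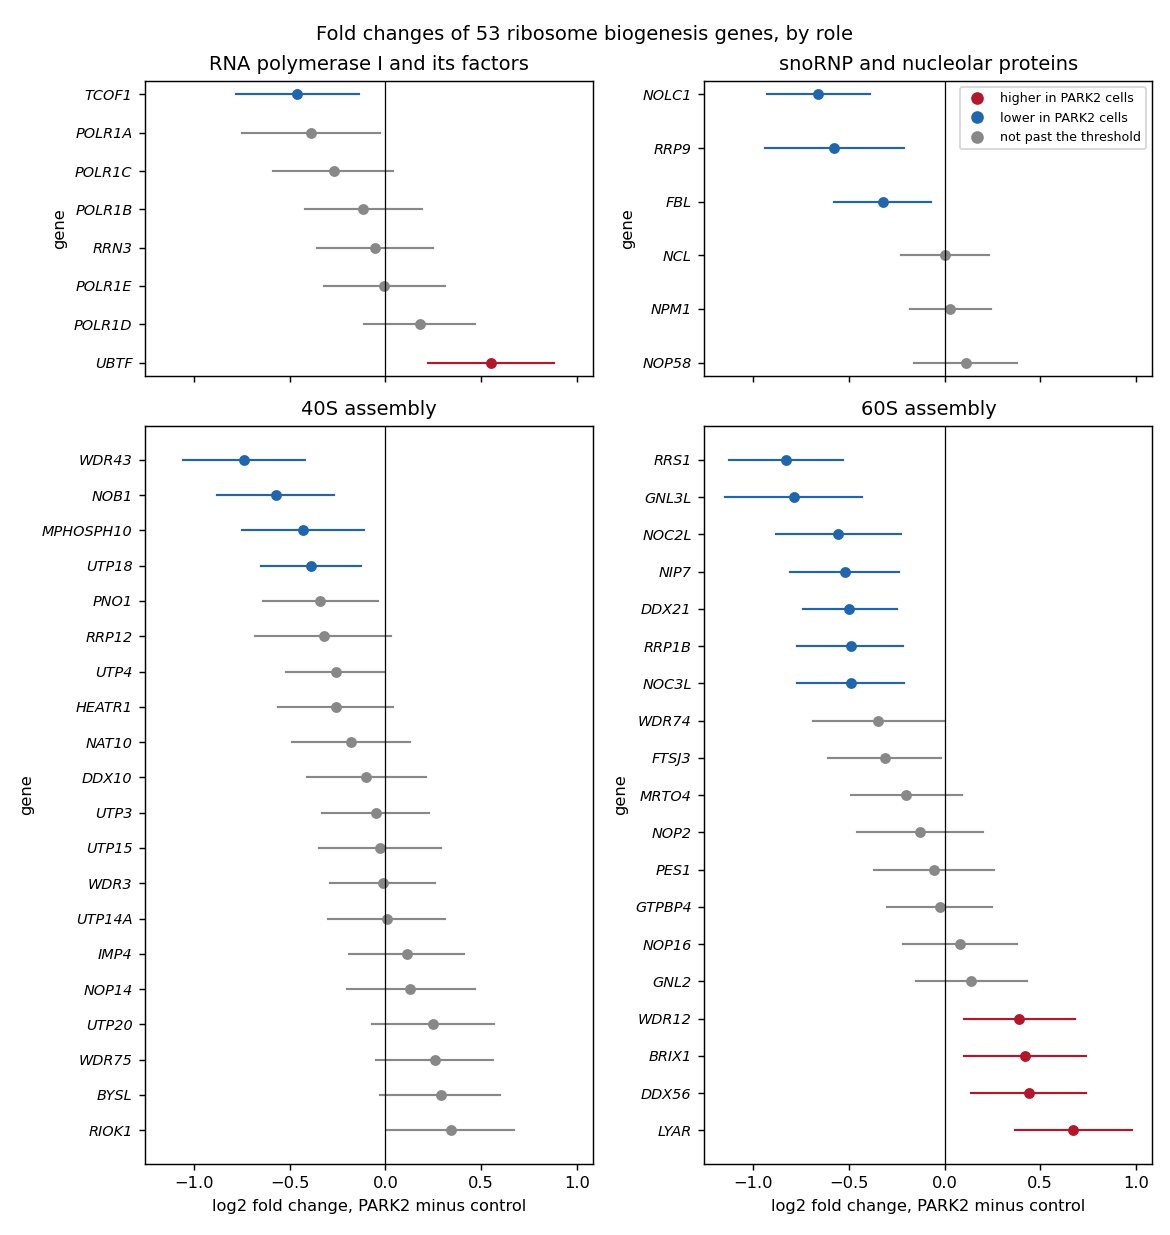
Log2 fold change (PARK2 minus control, horizontal axis) of the 53 ribosome biogenesis and nucleolar genes, in 4 panels by role; points are limma estimates from 3 arrays a group and bars are 95% intervals. Genes past the threshold are coloured (15 lower, 5 higher), and the estimates run from -0.83 (RRS1) to 0.67 (LYAR).

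Transcription by RNA polymerase I was represented by 8 genes, of which 1 was higher and 1 lower (12.5% each). Of all genes tested, 13.3% were higher and 15.6% lower. UBTF codes for the upstream binding factor that opens ribosomal DNA for the polymerase. Its intensity was 266, 272 and 271 in PARK2 arrays, against 224, 186 and 138 in control arrays. The PARK2 arrays were nearly level, all above control arrays that spread widely, and the log2 fold change was 0.55 (SE 0.17, adjusted p 0.00851). A second UBTF probe set averaged 300.4 in PARK2 arrays and 122 in control arrays. Its log2 fold change was larger (1.19, limma adjusted p 1.77e-05 over all probe sets). Its remaining probe sets past the filter, at 0.49 (adjusted p 0.062) and 0.16 (0.646), did not pass in that limma test. TCOF1 codes for treacle, which recruits the polymerase to ribosomal DNA and is mutated in Treacher Collins syndrome. It was at 196, 171 and 206 in PARK2 arrays, against 309.9, 258 and 241 in control arrays. No PARK2 array reached the lowest control array (log2 fold change -0.46 with an SE of 0.16 and a limma adjusted p of 0.0254).

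The 5 polymerase subunits among these 8 genes did not pass. POLR1A, the largest subunit, was at 64.4, 80.3 and 79.3 in PARK2 arrays and at 125, 86.5 and 98.4 in control arrays. The groups did not overlap, but the log2 fold change of -0.39 had an interval of -0.75 to -0.03 and an adjusted p of 0.103 by limma. POLR1C and POLR1D, subunits shared with RNA polymerase III, were at -0.27 and 0.18 on the log2 scale. The other 3 of the 8 genes lay between -0.12 and -0.00874. UBTF lost its call without control replicate 3 (adjusted p 0.0715), and TCOF1 without PARK2 replicate 1 (0.0601), PARK2 replicate 2 (0.178) or control replicate 2 (0.0727), as well as when the replicate number was blocked on (0.0639).

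The group of snoRNP and nucleolar proteins had 6 tested genes, of which 3 were lower and 0 higher. The shares among all genes were 15.6% lower and 13.3% higher. With 6 genes this comparison is coarse, and the difference in shares was not tested. NOLC1, also known as Nopp140, is a chaperone of snoRNPs that shuttles between nucleolus and Cajal bodies. It was at 1083, 1049 and 1096 intensity units in PARK2 arrays, against 1877, 1622 and 1636 in control arrays. Arrays of each group lay close together and far from the other group, and the change was -0.66 on the log2 scale (SE 0.13, adjusted p 7.35e-05). Both other NOLC1 probe sets were lower too, at -0.72 and -0.59. RRP9, a protein of the U3 snoRNP that is needed for early cleavage of the precursor, was at 71.9, 66.9 and 68.3 in PARK2 arrays, against 119, 137 and 83.4 in control arrays. The control arrays were uneven and 1 of them came near the PARK2 level (log2 fold change -0.58 with an SE of 0.18 and a limma adjusted p of 0.0112).

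FBL, fibrillarin, is the methyltransferase of box C/D snoRNPs. Its intensity was 2308, 2195 and 2051 in PARK2 arrays, against 3283, 2476 and 2514 in control arrays. Control replicate 1 lay well above the other control arrays. The log2 fold change of -0.32 (SE 0.13) passed narrowly, at an adjusted p of 0.0495 by limma. FBL was at -0.19 (adjusted p 0.078) without control replicate 1, and it also missed the threshold without control replicate 2 (0.065) or any of PARK2 replicates 1, 2 and 3 (0.0782, 0.155 and 0.233). RRP9 missed it without control replicate 2 (adjusted p 0.144), while NOLC1 kept it under every array left out. The abundant nucleolar proteins nucleolin and nucleophosmin did not move detectably: NCL had a log2 fold change of 0.00155 with an interval of -0.23 to 0.23, and NPM1 one of 0.0286 with an interval of -0.18 to 0.24.

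Assembly of the 40S subunit was represented by 20 tested genes, of which 4 were lower and 0 higher. Among all genes tested, 15.6% were lower and 13.3% higher. The share of the 20 that passed in either direction was below the 28.8% of all genes, while the share lower was somewhat above theirs. WDR43 belongs to the subcomplex of the processome that links ribosomal DNA transcription to processing of the precursor. It was at 219, 220.4 and 283 in PARK2 arrays, against 464, 393 and 379 in control arrays. The highest PARK2 array stayed well under the lowest control array, and the log2 fold change was -0.74 (SE 0.16, adjusted p 0.000166). NOB1, the endonuclease that makes the final cut of the small subunit RNA, was at 337, 398 and 376 in PARK2 arrays, against 631, 523 and 528 in control arrays. The gap between the groups was wider than the spread within either (log2 fold change -0.57 with an SE of 0.15 and a limma adjusted p of 0.00229).

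UTP18 and MPHOSPH10 are further proteins of the processome. UTP18 was at 1785, 1646 and 1740.2 in PARK2 arrays, against 2559.5, 2208 and 2039.9 in control arrays (log2 fold change -0.39 with an SE of 0.13 and a limma adjusted p of 0.0174). MPHOSPH10 was at 245, 384 and 369.7 in PARK2 arrays, against 402, 477 and 460.4 in control arrays (log2 fold change -0.43 with an SE of 0.16 and a limma adjusted p of 0.0363). In MPHOSPH10, PARK2 replicate 1 was far below the other two and the groups nearly touched. Without that array the gene was at -0.23 (adjusted p 0.399), and without control replicate 2 its adjusted p was 0.17. UTP18 missed the threshold without PARK2 replicate 2 (adjusted p 0.126), PARK2 replicate 3 (0.0722) or control replicate 2 (0.0672). WDR43 and NOB1 kept their calls under every array left out.

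The other 16 genes of the 40S group did not pass, and they spread on both sides of 0. PNO1, the partner of NOB1 on the nascent subunit, was at -0.34 (adjusted p 0.0776), RRP12 at -0.32, and the processome proteins UTP4 and HEATR1 both at -0.26. The RNA acetyltransferase NAT10 was at -0.18. In the other direction, the kinase RIOK1 was at 0.34 (adjusted p 0.123), BYSL at 0.29, WDR75 at 0.26 and UTP20 at 0.25. WDR75 belongs to the same subcomplex as WDR43, and its 3 PARK2 arrays lay above its 3 control arrays. For UTP4 and HEATR1 the PARK2 arrays lay below the control arrays. Of all 20 genes, 7 had their PARK2 arrays entirely below and 2 entirely above, where 21.1% and 18.3% of all genes did so. All tests in this paragraph are limma's.

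**Figure D2:**
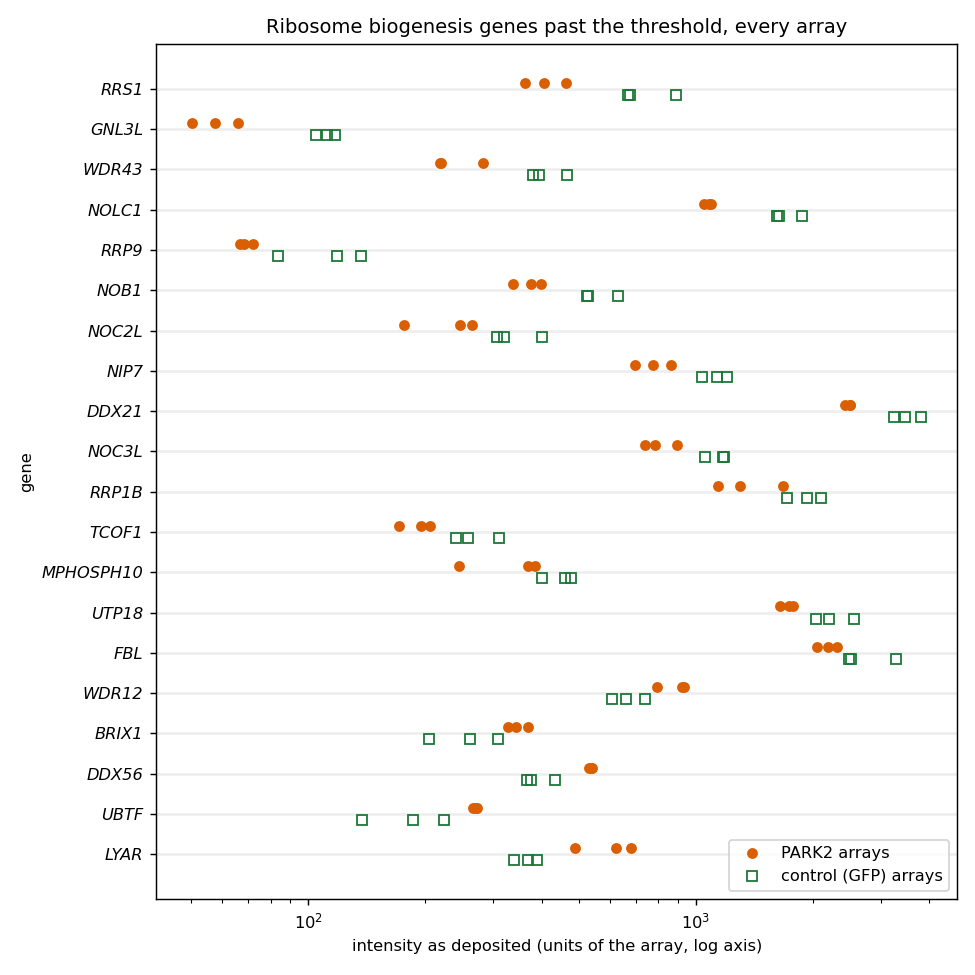
Deposited intensity (horizontal log axis) of the 20 genes past the threshold on each of the 6 arrays, with filled circles for PARK2 arrays and open squares for control arrays of 1 gene on each line, from the largest fall at the top to the largest rise at the bottom. In every one of the 20 genes the 3 circles lie on one side of the 3 squares, closest in MPHOSPH10 and RRP1B.

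Assembly of the 60S subunit was represented by 19 tested genes, and 11 of them passed (57.9%, against 28.8% of all genes). Of the 19, 7 were lower (36.8%) and 4 higher (21.1%), against 15.6% and 13.3% of all genes. RRS1, which in yeast helps to place the 5S RNA and its proteins in the nascent subunit, had the largest fall of the 53 genes. It was at 406, 362 and 463 in PARK2 arrays, against 890.0, 678 and 668 in control arrays. No PARK2 array came near the lowest control array (log2 fold change -0.83 with an SE of 0.15 and a limma adjusted p of 1.22e-05). GNL3L, a nucleolar GTPase related to nucleostemin, was at 57.4, 50.3 and 66.0 in PARK2 arrays, against 105, 117 and 112 in control arrays. Both groups were tight (log2 fold change -0.79 with an SE of 0.18 and a limma adjusted p of 0.000405), but the signal was dim, and the mean of its probe sets gave -0.36 (adjusted p 0.125).

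DDX21, a DEAD-box helicase active in both transcription and processing of ribosomal RNA, was at 2496, 2490.0 and 2424 in PARK2 arrays, against 3807, 3455 and 3236 in control arrays. The PARK2 arrays were almost equal, and the log2 fold change was -0.50 (SE 0.12, adjusted p 0.000981). NIP7, an adaptor for late processing steps, was at 697, 864 and 777 in PARK2 arrays, against 1202, 1136 and 1039 in control arrays. Its groups stood apart (log2 fold change -0.52 with an SE of 0.14 and a limma adjusted p of 0.00276), as did those of its other probe set (-0.61). NOC3L, whose yeast counterpart takes part in moving the large subunit towards the nuclear pore, was at 739, 784 and 895 in PARK2 arrays, against 1174, 1183 and 1055 in control arrays (log2 fold change -0.49 with an SE of 0.14 and a limma adjusted p of 0.005).

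NOC2L, a nucleolar protein also known to inhibit histone acetylation, was at 264, 177 and 246 in PARK2 arrays, against 401, 307 and 319 in control arrays. PARK2 replicate 2 was the lowest of the 6 (log2 fold change -0.56 with an SE of 0.16 and a limma adjusted p of 0.00659), and without it the adjusted p was 0.164. A dim second probe set of NOC2L pointed the other way without passing (0.37), and the mean of the probe sets was -0.0942. RRP1B, a nucleolar protein that binds a protein phosphatase, was at 1673, 1139 and 1303 in PARK2 arrays, against 2102, 1939 and 1716 in control arrays. Its groups almost met (log2 fold change -0.49 with an SE of 0.14 and a limma adjusted p of 0.00398), and it missed the threshold without PARK2 replicate 2 (adjusted p 0.117) and as the mean of its probe sets (-0.25, adjusted p 0.259). NOC3L missed it narrowly without control replicate 2 (0.0528). RRS1, GNL3L, DDX21 and NIP7 kept their calls under every array left out.

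The other 4 genes of the 60S group that passed were higher. LYAR, a zinc-finger protein of the nucleolus with a part in precursor processing, had the largest rise of the 53. It was at 487, 681 and 624 in PARK2 arrays, against 339, 389 and 369 in control arrays. The PARK2 arrays varied more than the control arrays but lay above all of them (log2 fold change 0.67 with an SE of 0.15 and a limma adjusted p of 0.000408), and a second LYAR probe set was higher too (0.47). DDX56, a nucleolar helicase, was at 541, 529 and 536 in PARK2 arrays, against 433, 367 and 375 in control arrays (log2 fold change 0.44 with an SE of 0.15 and a limma adjusted p of 0.0214).

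BRIX1, the counterpart of a yeast 60S assembly factor, was at 343, 368 and 328 in PARK2 arrays, against 309, 205 and 261 in control arrays (log2 fold change 0.42 with an SE of 0.16 and a limma adjusted p of 0.0428). WDR12, which forms a complex with PES1 and BOP1, was at 929.7, 794 and 921 in PARK2 arrays, against 739.8, 661 and 607 in control arrays (log2 fold change 0.39 with an SE of 0.14 and a limma adjusted p of 0.0336). These rises were less secure than that of LYAR, which kept its call under every array left out. DDX56 and BRIX1 lost their calls without any of the 3 PARK2 arrays or without control replicate 2 (adjusted p up to 0.14 and 0.383, both without control replicate 2). WDR12 lost its call without any of the 3 PARK2 arrays or without control replicate 2 or 3 (up to 0.164, without PARK2 replicate 3). As the mean of its probe sets WDR12 was at 0.17 and did not pass (limma adjusted p 0.479). When the replicate number was blocked on, the adjusted p was 0.0653 for DDX56, 0.0957 for BRIX1 and 0.0797 for WDR12. The 8 other genes of the 60S group did not pass, among them WDR74 at -0.35, the methyltransferase FTSJ3 at -0.31, MRTO4 at -0.20, the RNA methyltransferase NOP2 at -0.13 and the GTPase GNL2 at 0.14.

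Different probe sets of a gene mostly moved the same way. Of the 20 genes past the threshold, 12 had further probe sets past the filter, 18 in number. Of these 18, 15 had the direction of the chosen one, some with changes near 0 (WDR12 at 0.0866 and 0.0274). Of the 15, 8 passed when all probe sets were tested together by limma, while 3 of the 18 had the opposite direction and 0 of them passed. Those 3 were probe sets of GNL3L, NOC2L and RRP1B, each with a mean of at most 30.8 intensity units in either group. In that limma test the chosen probe sets of MPHOSPH10 (adjusted p 0.0911), FBL (0.0889), BRIX1 (0.0861), WDR12 (0.0562) and TCOF1 (0.051) did not pass. Of 30 further probe sets of genes that did not pass, 2 did, 1 of PNO1 (-0.52) and 1 of POLR1A (-0.56), both lower.

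The promoters of the 53 genes were searched for the E-box CACGTG, the palindromic site that MYC and its partner MAX are known to bind, because many genes of ribosome biogenesis are known MYC targets. RefSeq windows (GRCh38.p14) reach from 250 bases before to 50 bases after the start of a gene, and 45 of the 53 genes had one. Of these 45, 19 (42.2%) held the E-box, against 12.2% of the tested genes with a window and 8.77% of all genes in the table, counting a gene with several windows once. It was present in 6 of the 10 lower genes with a window, in 1 of 5 higher genes and in 12 of 30 genes that did not pass. A match describes the sequence and does not show that a factor binds there. The following 180-base stretches, from 150 bases before to 30 bases after the start, show the E-box in capitals in 4 genes that were lower and in LYAR, which was higher. LYAR has another annotated start, whose window held 0 E-boxes and is not shown.
WDR43, chr2:28894517-28894696, plus strand: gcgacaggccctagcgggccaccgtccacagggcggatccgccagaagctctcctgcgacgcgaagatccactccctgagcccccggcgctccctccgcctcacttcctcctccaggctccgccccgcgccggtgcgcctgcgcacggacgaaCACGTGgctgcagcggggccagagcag
RRP9, chr3:51941875-51942054, minus strand: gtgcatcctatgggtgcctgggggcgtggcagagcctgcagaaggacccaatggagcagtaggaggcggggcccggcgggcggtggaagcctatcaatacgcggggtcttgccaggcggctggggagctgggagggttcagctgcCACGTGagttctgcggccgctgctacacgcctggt
UTP18, chr17:51260396-51260575, plus strand: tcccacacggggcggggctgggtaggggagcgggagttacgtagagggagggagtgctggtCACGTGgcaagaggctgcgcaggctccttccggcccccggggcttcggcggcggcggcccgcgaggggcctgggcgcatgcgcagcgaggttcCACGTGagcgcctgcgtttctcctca
FBL, chr19:39846350-39846529, minus strand: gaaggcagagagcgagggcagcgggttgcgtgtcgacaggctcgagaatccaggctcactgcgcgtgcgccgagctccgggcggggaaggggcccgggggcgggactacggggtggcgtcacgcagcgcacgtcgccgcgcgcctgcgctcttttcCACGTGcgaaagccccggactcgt
LYAR, chr4:4289992-4290171, minus strand: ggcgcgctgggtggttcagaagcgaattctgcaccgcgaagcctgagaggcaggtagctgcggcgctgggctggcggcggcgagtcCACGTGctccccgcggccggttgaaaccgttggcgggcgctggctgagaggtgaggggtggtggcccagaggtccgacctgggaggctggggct
In WDR43 the E-box begins 4 bases into the transcript and in FBL 7 bases into it, where the annotated start is base 1. UTP18 has 2, one of them 89 bases before the start and the other at base 5.

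MYC itself was lower in PARK2 cells, with intensities of 499, 647 and 579 in PARK2 arrays against 921, 899.7 and 699 in control arrays. The groups did not overlap (log2 fold change -0.53 with an SE of 0.15 and a limma adjusted p of 0.00419), but the call was lost without PARK2 replicate 1 (adjusted p 0.0597) or control replicate 2 (0.0535). Of 9 tested genes of the MYC, MAX and MXD network, 4 were lower (44.4%) and 1 higher (11.1%). Of all genes tested, 15.6% were lower and 13.3% higher. MXD1, MXI1 and MNT code for proteins that pair with MAX and oppose MYC, and they were lower at -0.79, -0.64 and -0.49. The last of these had overlapping groups and lost its call without PARK2 replicate 1 (adjusted p 0.292), PARK2 replicate 2 (0.0716) or control replicate 1 (0.157), and averaging its probe sets gave -0.0686. MXD3, of the same family, was higher (0.61), and MAX did not pass (-0.17, adjusted p 0.438).

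Other ribosome biogenesis genes, a list of 112 further factors of which 108 were tested, also had more lower than higher genes. Of the 108, 25 were lower (23.1%) and 6 higher (5.56%), against 15.6% and 13.3% of all genes, and the share past the threshold in either direction was 28.7%, near the 28.8% of all genes. The median log2 fold change was -0.0859. Quantile normalization gave 30 lower and 13 higher (2550 and 2648 of all genes), and trimmed mean scaling gave 29 lower and 14 higher (2509 and 2632 of all genes). The 4 largest changes were falls in TSR1, a factor of the late 40S particle (-0.94), RSL24D1, a large subunit factor (-0.89), and the exosome subunits EXOSC4 (-0.88) and EXOSC7 (-0.82). After subtraction of its chromosomal neighbours EXOSC4 was at -0.28 (adjusted p 0.093). TSR1 was at 341, 329 and 403 in PARK2 arrays, against 760.5, 677 and 665 in control arrays, a wide gap (SE 0.15, adjusted p 7.08e-07). Averaging its probe sets gave EXOSC7 a value of -0.40 (adjusted p 0.0573), and without probe sets that can bind several transcripts it was at 0.0186.

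Further factors of RNA polymerase I in that list, picked out after their values were seen, were 8 tested genes. Of these, 3 were higher and 3 lower (37.5% each), against 13.3% and 15.6% of all genes. The subunit POLR1F (0.77), the termination factor TTF1 (0.57) and TAF1A (0.44) were higher, while TAF1B (-0.78), POLR1G (-0.65) and TAF1D (-0.46) were lower. The other two, TAF1C (-0.42, adjusted p 0.058) and POLR1H (0.25), did not pass. The 4 TAF1 proteins belong to a single complex, the selectivity factor that places the polymerase on its promoter. TAF1A lost its call without PARK2 replicate 2 or 3 or control replicate 2 or 3 (adjusted p up to 0.199), and TAF1D without PARK2 replicate 1 or 3 or control replicate 1 (up to 0.194). Both also lost it when the replicate number was blocked on (0.0797 and 0.0641). After subtraction of chromosomal neighbours, POLR1F was at 0.22 (adjusted p 0.0611), TAF1A at 0.28 (0.0595) and TAF1D at -0.20 (0.188). TAF1B was at -0.44 (0.104) without probe sets that can bind several transcripts.

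Cytosolic ribosomal protein genes, which code for the finished particle, had smaller measured changes. Of 57 tested, 6 were lower (10.5%) and 1 higher (1.75%), against 15.6% and 13.3% of all genes. Their median log2 fold change was -0.0051. The median size of a change was 0.0629, against 0.288 for the 53 biogenesis genes and 0.253 for all genes. Their median SE was smaller too, at 0.108 against 0.152 and 0.169, and most of them were very bright. The part of brightness in this difference was not tested. RPL39L, a paralogue of RPL39 best known from testis, stood out from the rest at 544, 492 and 504 in PARK2 arrays, against 239, 197 and 121 in control arrays (log2 fold change 1.44 with an SE of 0.17 and a limma adjusted p of 1.65e-10). RPL8 (-0.45), RPS27L (-0.44) and RPL14 (-0.36) had the next largest changes, but RPL8 and RPS27L were at 0.0537 and 0.0466 once their chromosomal neighbours were subtracted, and RPL14 was at 0.0486 without probe sets that can bind several transcripts and lost its call without PARK2 replicate 2 or 3 (adjusted p 0.0983 and 0.0698).

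**Figure D3:**
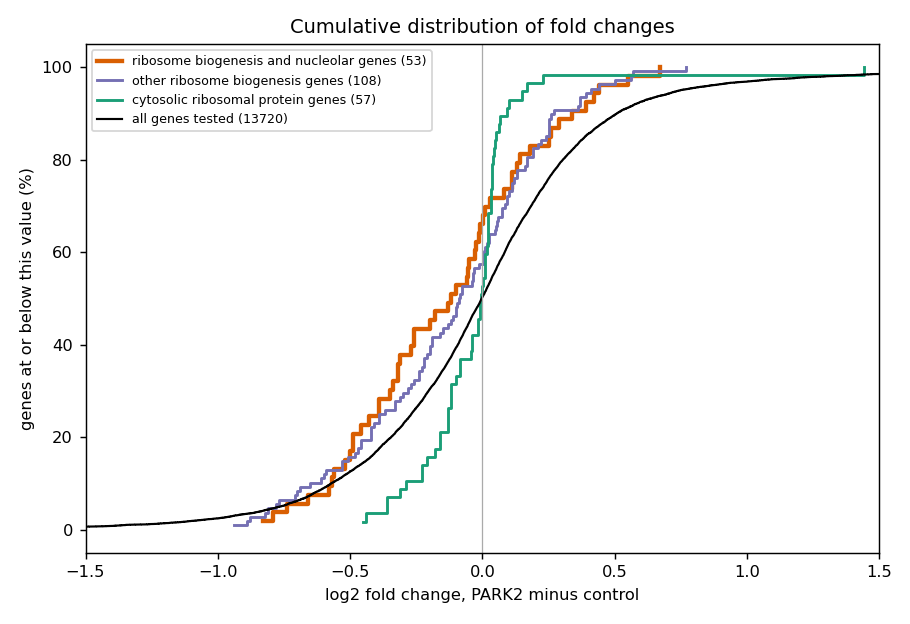
Share of genes (vertical axis, percent) at or below a given log2 fold change (PARK2 minus control, horizontal axis) for the 53 ribosome biogenesis and nucleolar genes, 108 other ribosome biogenesis genes, 57 cytosolic ribosomal protein genes and all 13720 genes tested. The first 2 curves run left of that of all genes around 0, with medians of -0.12 and -0.0859, and the curve of ribosomal protein genes is the steepest.

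Changes of the 53 genes went with those of the genes next to them on the chromosome. For each gene, the median log2 fold change of the 20 nearest tested genes on each side was taken, by the order of genes in RefSeq. Across the 53 genes this median and the change of the gene itself had a Pearson r of 0.667 and a Spearman rho of 0.697, against 0.395 and 0.437 across 13686 genes. These are descriptions over genes measured on the same 6 arrays, and neighbouring genes share neighbours. The median of the neighbours was below 0 for 11 of the 15 lower genes and above 0 for 4 of the 5 higher ones. NOLC1 lay among neighbours with a median of -0.36, of which 16 of 40 were lower and 0 higher, and DDX56 among neighbours with a median of 0.33, of which 18 of 40 were higher and 1 lower. NOB1 and NIP7 both lie on chromosome 16, among neighbours with medians of -0.20 and -0.14.

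After the median deviation of its neighbours was subtracted from each gene on each array, 14 of the 53 genes were lower and 2 higher, where 14.3% of all genes were lower and 14.7% higher. Of the 15 lower genes 10 were still lower: RRS1 (-0.56), NOC2L (-0.56), TCOF1 (-0.52), RRP1B (-0.50), GNL3L (-0.49), WDR43 (-0.45), NOB1 (-0.42), FBL (-0.40), NIP7 (-0.39) and NOLC1 (-0.30). DDX21 (-0.14), RRP9 (-0.24), MPHOSPH10 (-0.15), UTP18 (-0.18) and NOC3L (-0.17) were no longer past the threshold. Of the 5 higher genes UBTF alone was still higher (0.68), and LYAR was at 0.35 (adjusted p 0.0657). Nucleolin (-0.32), HEATR1 (-0.42), NAT10 (-0.35) and POLR1C (-0.31) were lower and BYSL (0.28) higher by limma only after this correction. After it MYC was at -0.0806 (adjusted p 0.591), MNT at -0.21 (0.379) and RPL14 at -0.0578 (0.606).

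**Figure D4:**
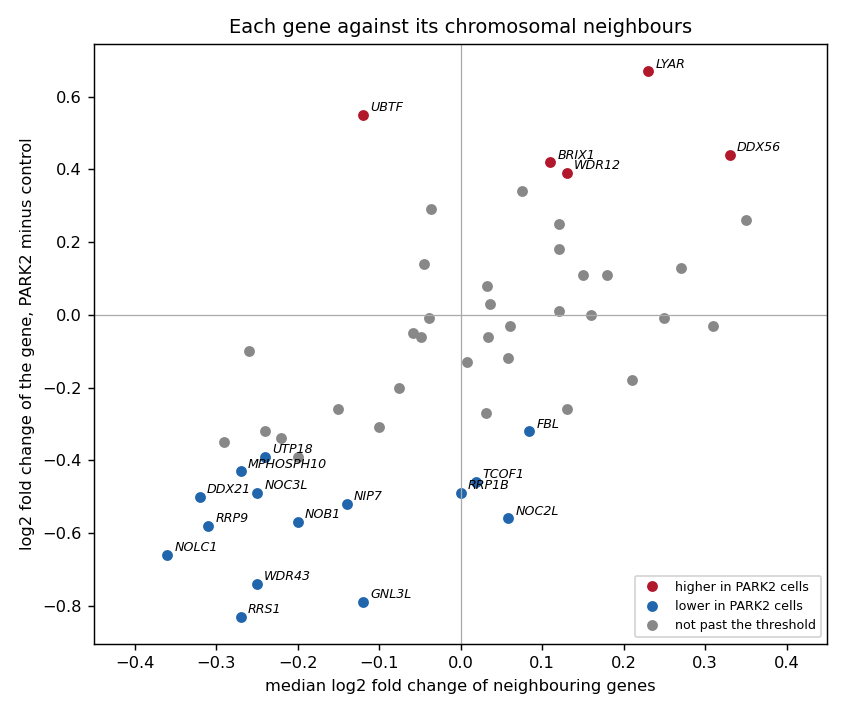
Log2 fold change of each of the 53 genes (PARK2 minus control, vertical axis) against the median log2 fold change of up to 40 neighbouring tested genes (horizontal axis), 1 point a gene, coloured as higher, lower or not past the threshold. Points run from the lower left (NOLC1, DDX21, RRP9) to the upper right (LYAR, DDX56), while UBTF lies at the upper left.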

How the data were processed

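RNA of U251 cells was measured on Affymetrix arrays, 3 of PARK2 cells and 3 of control cells. The values are intensities as deposited by the authors, 1 per probe set and array on a linear scale; the tools listed per the submitters' processing notes are GCOS and MAS5, and version and scaling target are not given in the sources used here. No further normalization was applied. Of 54675 probe sets, 41091 carried 1 gene symbol, 1801 several and 11721 none, and 62 were controls. Probe sets under the 40th percentile of mean log2 intensity (below a mean of 9.87) were left out, the brightest of each gene was kept, and log2(intensity + 16) of 13720 genes was fitted with limma 3.58.1 in R 4.3.3 (lmFit, eBayes with trend), with Benjamini-Hochberg adjustment and a threshold of 0.05. Fold changes on this scale understate those of dim genes. The number of arrays limits precision. The trend over all genes carried 60.8 degrees of freedom, against 4 from the arrays of each gene. An SE thus rests mostly on genes of like intensity. Without the trend, 11 of the 53 genes were lower and 3 higher, against 1789 and 1478 of all 13720. The fit was tested on simulated data. Symbols were checked against RefSeq, whose GRCh38.p14 table gave gene order and promoters.

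Genes named with values are all members past the threshold, members described by role, MYC, and the 4 largest changes of each other list past the threshold, with exceptions said in the text. Members and lists were chosen with earlier results of these data known. Alternatives covered the scale, filter, pseudocount, probe set choice, fit, thresholds, each array left out, a replicate block and a correction for chromosomal neighbours.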

Additional observations from a re-analysis of the deposited data

How the results depend on the processing

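The median log2 fold change of the 53 genes stayed below 0 under every alternative run, from -0.18 to -0.0257 with an array left out. RRS1, WDR43 and NOLC1 were called lower under all alternatives, and 0 of the higher genes kept their call under all. The 5 higher genes became 3 without the filter, 8 with trimmed mean scaling, 3 without the trend, 11 with array weights, 2 at an adjusted p of 0.01, 1 with a 1.5-fold minimum, 2 with the replicate block, 2 after neighbour correction, and 2 to 9 with an array left out. The 15 lower genes became 24 with array weights, 4 with the 1.5-fold minimum, and 9 to 20 with an array left out (9 without control replicate 2, 20 without control replicate 3). limma's array weights did not reach their convergence tolerance. Of other ribosome biogenesis genes, the 6 higher became 13 with quantile normalization, 14 with trimmed mean scaling, 23 with array weights, 2 without probe sets that can bind several transcripts, 1 with the 1.5-fold minimum, and 2 to 13 with an array left out, while the 25 lower became 44 with array weights, 14 with the 1.5-fold minimum, and 16 to 30 with an array left out. Of cytosolic ribosomal protein genes, the 1 higher became 3 with quantile normalization, 11 with array weights, 5 after neighbour correction, and 1 to 5 with an array left out. The 6 lower became 2 without the filter, 12 with quantile normalization, 1 without the trend, 11 with array weights, 2 at 0.01, and 2 to 6 with an array left out, and 0 by limma with the 1.5-fold minimum (8 of the 57 had an unadjusted p under 0.05). Over all genes, 1818 higher became 4322 with array weights, 1063 with the 1.5-fold minimum and 1225 to 2799 with an array left out, and 2139 lower became 3854, 1291 and 1540 to 2629.

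The sign turned for NOC2L (0.37), EXOSC7 (0.0186) and RPL14 (0.0486) without probe sets that can bind several transcripts, and for WDR75 (-0.0995), RPL8 (0.0537) and RPS27L (0.0466) after neighbour correction. NCL, near 0, was at -0.0124 with median centring, -0.0569 with averaged probe sets, -0.12 without such probe sets, -0.32 after neighbour correction, and -0.0771 to 0.0619 with an array left out. NPM1 was at -0.12 with averaged probe sets, -0.0833 after neighbour correction, and -0.00861 to 0.0916 with an array left out. The cause was not tested. Arrays that share a replicate number correlated at 0.1683, 0.04525 and 0.06493 in their deviations from the group means. PARK2 replicates 1 and 3 correlated best with the control array of their own number, and PARK2 replicate 2 with control replicate 3 (0.06866). The labels do not say what a number shares, so the main fit did not take the numbers as pairs. With the replicate block, 13 of the 53 genes were lower and 2 higher, against 1897 and 1556 of all 13720.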
